A study of Mus musculus with 20 samples.

Results

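Autophagy is described here through 10 genes of the machinery and its cargo receptors, namely Ulk1, Becn1, Atg7, Atg3, Atg12, Atg5, Map1lc3b, Gabarapl1, Sqstm1 and Nbr1, among 18194 genes measured in mouse salivary glands (SGs). The genes were chosen by name, and every probe set annotated to a single one of these symbols was taken, which gave 29 of 34958 single-symbol probe sets. A probe set is the group of short oligonucleotides that reports 1 transcript region on the array, and the brightest on average stood for its gene. SGs freed of lymph nodes came from C57BL/6J mice labelled male. There were 5 mice of 4, 5 of 8, 5 of 12 and 5 of 16 weeks, each measured on its own array. All mice were untreated, and the strain served the study as the healthy comparison for an autoimmune-prone congenic strain derived from it, which is not analysed here. Signals are log2 values, so that a difference of 1 is a factor of 2, and a gene was called when its adjusted p from limma was under 0.05. SE is the standard error of a log2 fold change.

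Autophagy encloses cytoplasm, damaged organelles or protein aggregates in a double membrane and delivers them to the lysosome for breakdown. The kinase Ulk1 starts the process, Becn1 belongs to the lipid kinase complex that nucleates the membrane, and a ubiquitin-like pair of reactions then builds it. In these reactions the E1-like enzyme Atg7 and the E2-like enzyme Atg3 attach Atg8-family proteins such as Map1lc3b and Gabarapl1 to the lipid of the membrane, while Atg12 is joined to Atg5. The receptors Sqstm1 (p62) and Nbr1 bind ubiquitin-tagged cargo on one side and Atg8-family proteins on the other. Secretory acinar cells, the bulk of a SG, rely on autophagy for the turnover of organelles and secretory granules.

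Several features of the arrays bear on all values. The spread of gene values within an array, given as the standard deviation over its 18194 genes, was 1.68 ± 0.145, 1.5 ± 0.0901, 1.64 ± 0.0273 and 1.51 ± 0.139 (SD, n = 5) from the youngest age to the oldest, although the study's methods name quantile normalization. Replicate 1 at 16 weeks stood apart from its group at 1.745, against at most 1.518 in the other mice of that age, and replicate 5 at 4 weeks had the highest spread of all at 1.90. The log2 signal at the 3′ end minus that at the 5′ end, a check of RNA integrity, differed between arrays. It ran from 1.49 to 3.94 for Gapdh and from 0.984 to 4.21 for Actb. In order of age the means were 2.37, 2.43, 2.69 and 2.40 for Gapdh and 2.51, 2.9, 3.52 and 3.04 for Actb. Its part in the differences below was not tested. The labels give male mice, but Xist, the RNA of the inactive X chromosome, lay between 8.96 and 10.7 in all 20 arrays (the 96.3 to 99.5 percentiles of genes). The Y-linked Eif2s3y, Kdm5d and Uty did not exceed 2.97, 4.75 and 5.76 (at most the 4.6, 31.2 and 59.4 percentiles). These signals are those of female tissue and go against the labels, but the sex of the mice was not checked in another way. Of 11 acinar markers measured, 6 (Prol1, Slc12a2, Smgc, Bhlha15, Aqp5 and Lpo) were at or above the 96.7 percentile of genes in every array. The other 5 were low in some arrays, down to 3.84 for Dcpp1, 5.56 for Smr3a, 5.97 for Smr2, 6.28 for Bpifa2 and 3.81 for the parotid enzyme gene Amy1, which reached 12.4 in another array. Lower signal in a whole gland can come from fewer cells of a type or from less RNA per cell, and these cannot be told apart here.

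From 4 to 8 weeks of age the conjugation enzyme gene Atg3 and the receptor gene Nbr1 fell, with log2 fold changes of -1.23 and -1.43, and the probe set standing for Becn1 rose by 0.81. Another bright probe set of Becn1 was called lower, with a log2 fold change of -1.16 (limma adjusted p = 0.0369), so the direction of Becn1 is not settled. These were 3 of the 10 genes, while 7.39% of all genes were called in this comparison (3.26% higher and 4.13% lower). Log2 fold changes were negative for 8 of the 10 genes and ranged from -1.43 to 0.81. The median of the 10 was -0.45, against 0.05 over all genes and -0.49 over the brightest 10% of genes. At an unadjusted p under 0.05 the genes numbered 6 of 10, against 32.4% of all genes. None of the 3 was called by limma when the fit held only the 4- and 8-week arrays or weighted the arrays by their quality. None of the 10 genes was called by limma in the later periods, and by 16 weeks Atg3 and Sqstm1 were lower than at 4 weeks.

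**Figure D1:**
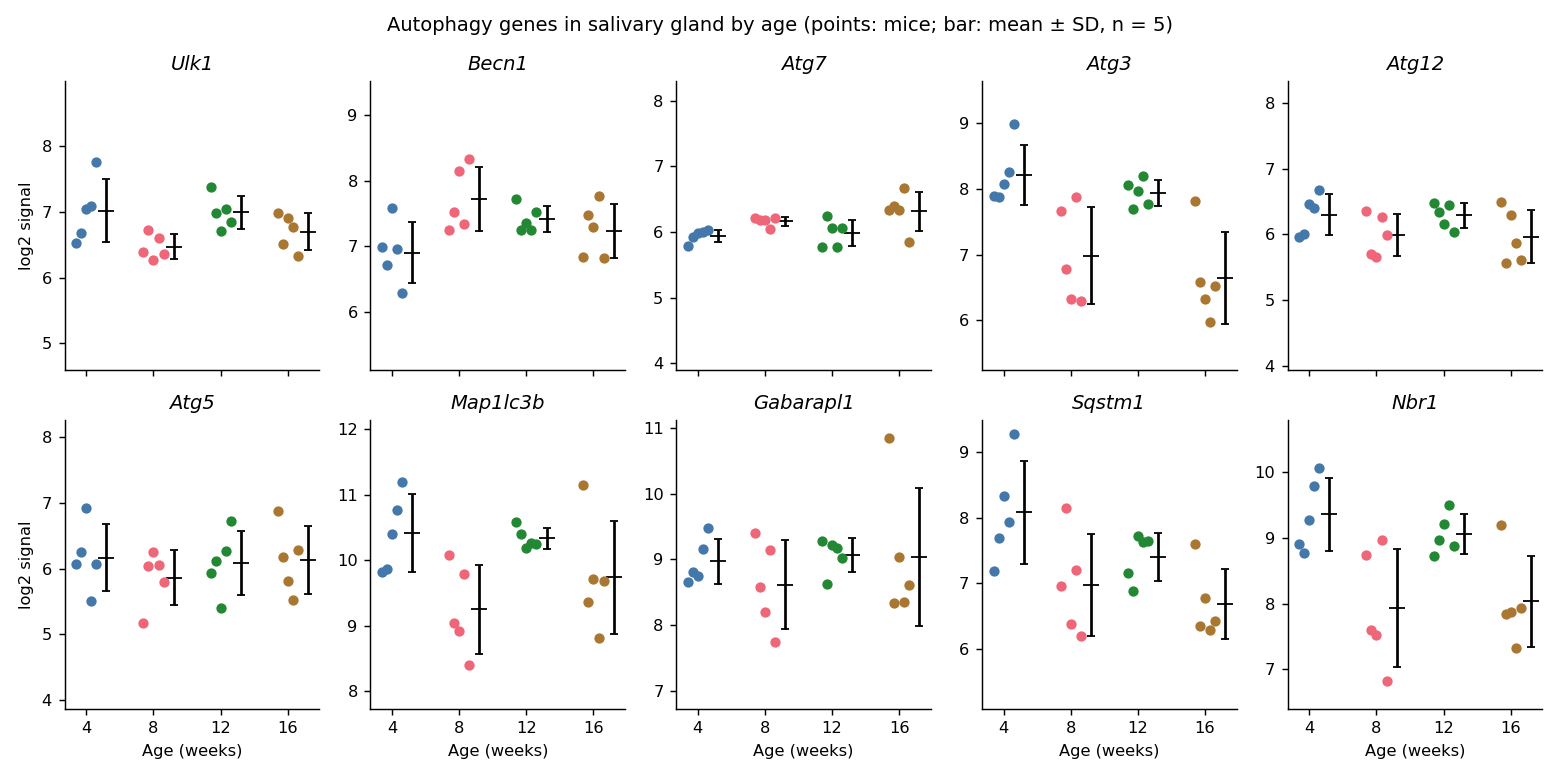
Log2 signal of each autophagy gene (vertical axis) by age in weeks (horizontal axis), with 1 point per mouse and a bar for the mean ± SD of 5 mice; the vertical axis differs between panels. Atg3, Nbr1 and Map1lc3b had their lowest means at 8 or 16 weeks, Becn1 had its highest mean at 8 weeks (7.72), and replicate 1 at 16 weeks lay far above its group for Gabarapl1 (10.84).

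The plot of the genes by age shows the order followed here, from initiation to the receptors. Ulk1, which encodes the initiating kinase, had mean signals of 7.02 ± 0.48, 6.47 ± 0.19, 7.0 ± 0.25 and 6.70 ± 0.28 (SD, n = 5) in order of age. Its log2 fold change from 4 to 8 weeks was -0.55 (SE 0.196, limma adjusted p = 0.0744), and the mice of both ages overlapped. Neither its other periods nor the test over all ages passed the threshold, and the interval from 8 to 12 weeks ran from 0.12 to 0.94 (95%, without adjustment).

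Becn1, the scaffold of the nucleation complex, was with Atg7 one of the 2 genes with a positive log2 fold change from 4 to 8 weeks. The 5 mice at 4 weeks had log2 signals of 6.99, 6.72, 7.58, 6.96 and 6.28, and those at 8 weeks had 7.25, 7.53, 8.15, 7.34 and 8.33. The mice at 12 weeks had 7.71, 7.25, 7.36, 7.25 and 7.52, and those at 16 weeks had 6.83, 7.47, 7.29, 7.77 and 6.83. The means were 6.91, 7.72, 7.42 and 7.24 (SD 0.471, 0.490, 0.198 and 0.411), and a single mouse at 4 weeks, replicate 3, reached into the range of the 8-week mice. The rise from 4 to 8 weeks was 0.81 (SE 0.243, limma adjusted p = 0.0464). The call held in 7 of 20 fits that each left out 1 mouse and also depended on the probe set. The 5 probe sets of Becn1 gave log2 fold changes from 4 to 8 weeks of 0.81, 0.35, 0.04, -0.42 and -1.16, and the extremes both passed the test over all probe sets. The lower one fell by 1.16 (SE 0.316, limma adjusted p = 0.0369) from a mean signal rank close to that of the probe set standing for the gene (the 92.7 and 93.7 percentiles of all probe sets). Both carry the same sequence accession in the annotation, and over the 20 arrays their signals had r = -0.55 (Spearman rho = -0.43). The suffix of the rising probe set (x) marks probes that may match other transcripts, and that of the falling one (s) marks probes shared by several transcripts. The mean of the 5 probe sets gave a log2 fold change of -0.08 (limma adjusted p = 0.67, within a range of 0.0284 to 0.67 over all alternatives), so the direction of Becn1 is not settled by this array.

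The conjugation genes Atg7, Atg3, Atg12 and Atg5 did not all move together. Over the 20 arrays Atg12 followed Atg3 (r = 0.75), while Atg5 and Atg7 did not (r = 0.16 and -0.60 with Atg3). Atg3, whose product passes Atg8-family proteins to the membrane lipid, showed the clearest difference with age of the 10 genes. Its log2 signals were 7.89, 7.87, 8.07, 8.26 and 8.99 at 4 weeks and 7.66, 6.78, 6.33, 7.87 and 6.29 at 8 weeks. At 12 weeks they were 8.05, 7.70, 7.97, 8.20 and 7.78, and at 16 weeks 7.81, 6.59, 6.32, 5.97 and 6.53. Mice at 4 and 12 weeks lay close together, whereas those at 8 weeks split into a pair of mice near the 4-week level, replicates 1 and 4, and 3 mice more than 1 unit below it. At 16 weeks all mice lay below all 4-week mice, with replicate 1 nearest to them. Between 4 and 8 weeks Atg3 fell by 1.23 (SE 0.327, limma adjusted p = 0.035), and at 16 weeks it stood at -1.57 relative to 4 weeks (SE 0.327, limma adjusted p = 0.016). Mice that did not overlap in this direction at 16 and 4 weeks were found for 1.65% of all genes. It was also the only one of the 10 genes called in the test over all ages (F = 10.6, limma adjusted p = 0.0254), a test passed by 2.6% of all genes. That call held in 13 of 20 fits without 1 mouse and was lost without replicates 3, 4 or 5 at 4 weeks or any of replicates 2 to 5 at 16 weeks. Nbr1 lay just outside that threshold (F = 7.51, limma adjusted p = 0.0521).

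Calls for Atg3 from 4 to 8 weeks held in 15 of 20 fits that each left out 1 mouse. They were lost without replicates 4 or 5 at 4 weeks and without replicates 2, 3 or 5 at 8 weeks (adjusted p from 0.0124 to 0.122 over the 20 limma fits). The 4-to-16-week call held in 16 of 20 (adjusted p from 0.00193 to 0.0634 over the limma fits) and was lost without replicates 4 or 5 at 4 weeks or replicates 2 or 4 at 16 weeks. The second probe set of Atg3 was dim (the 31.6 percentile of mean signal), and its log2 fold changes were 0.20 and 0.03 in these comparisons.

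Atg7, the E1-like enzyme upstream of Atg3, had the narrowest values. The 5 mice at 4 weeks had 5.79, 5.92, 5.98, 6.00 and 6.03, and those at 8 weeks had 6.21, 6.18, 6.19, 6.04 and 6.21. All 8-week mice were above all 4-week mice, as were 3.79% of genes in this comparison, but the log2 fold change of 0.22 did not pass (SE 0.134, limma adjusted p = 0.246). From 12 to 16 weeks it was 0.33 (SE 0.134, limma adjusted p = 0.287), and its 4 probe sets were all positive from 4 to 8 weeks, from 0.21 to 0.31. Atg12 and Atg5, which encode the ubiquitin-like protein and its conjugation partner, were not called in any of the 6 comparisons. Their log2 fold changes from 4 to 8 weeks were -0.31 (95% interval from -0.71 to 0.10) and -0.30 (95% interval from -0.89 to 0.29). One of the 3 probe sets of Atg5 was lower at 16 than at 4 weeks, with a log2 fold change of -1.0 (SE 0.239, limma adjusted p = 0.0282) with no overlap between the mice (as in 1.49% of all probe sets), while the probe set standing for Atg5 had -0.03 in the same comparison.

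The Atg8-family genes Map1lc3b (LC3B) and Gabarapl1 were among the brightest 10% of genes. Map1lc3b had log2 signals of 9.82, 9.86, 10.40, 10.77 and 11.20 at 4 weeks and 10.08, 9.05, 8.92, 9.79 and 8.40 at 8 weeks. It had 10.58, 10.40, 10.18, 10.27 and 10.24 at 12 weeks and 11.14, 9.36, 9.71, 8.81 and 9.68 at 16 weeks. The 12-week mice lay within 0.40 of each other and above every 8-week mouse (as in 3.39% of all genes), whereas the 16-week mice were spread by over 2 units, with replicate 1 on top. The log2 fold change was -1.16 from 4 to 8 weeks (SE 0.36, limma adjusted p = 0.0517) and 1.09 from 8 to 12 weeks (SE 0.36, limma adjusted p = 0.162). A second bright probe set was called from 4 to 8 weeks, where it fell by 1.45 (SE 0.422, limma adjusted p = 0.0435). The 3 bright probe sets followed each other over the 20 arrays with r from 0.89 to 0.93, and the fourth one was dim (the 23.3 percentile). Gabarapl1 had means of 8.97, 8.62, 9.06 and 9.04 from 4 to 16 weeks (SD 0.340, 0.675, 0.262 and 1.05), and no comparison was called. Its highest value, 10.84 in replicate 1 at 16 weeks, was 1.80 above the next mouse of that age.

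The receptor genes Sqstm1 and Nbr1 both had their highest means at 4 weeks. Nbr1 had 8.91, 8.77, 9.27, 9.79 and 10.07 at 4 weeks and 8.74, 7.60, 7.53, 8.97 and 6.81 at 8 weeks. At 12 weeks its signals were 8.73, 8.96, 9.22, 9.50 and 8.88, and at 16 weeks 9.19, 7.83, 7.88, 7.33 and 7.94. As for Atg3, replicate 4 at 8 weeks reached into the 4-week range and replicate 1 lay just below it, and replicate 1 at 16 weeks lay above the rest of its group. At 8 weeks Nbr1 had fallen, with a log2 fold change of -1.43 (SE 0.372, limma adjusted p = 0.0335). The later log2 fold changes were 1.13 from 8 to 12 weeks (limma adjusted p = 0.16) and -1.03 from 12 to 16 weeks (limma adjusted p = 0.25). Its dim second probe set also fell by 0.63 in the first period (SE 0.186, limma adjusted p = 0.045). It lay at -0.87 at 16 relative to 4 weeks (SE 0.186, limma adjusted p = 0.0188) with no overlap, as in 1.49% of all probe sets. From 4 to 8 weeks Nbr1 was thus the 1 gene of the 10 with all its probe sets called in the same direction. These 2 probe sets had r = 0.47 over the 20 arrays. They parted from 8 to 12 weeks, with log2 fold changes of 1.13 for the bright one and -0.13 for the dim one. The Nbr1 call held in 15 of 20 fits without 1 mouse and was lost without the same mice as that of Atg3 (adjusted p from 0.0111 to 0.116 over the limma fits).

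Sqstm1, whose product p62 is itself degraded by autophagy, had 7.19, 7.69, 8.33, 7.93 and 9.27 at 4 weeks and 6.96, 8.15, 6.38, 7.20 and 6.20 at 8 weeks. It had 7.16, 6.89, 7.71, 7.62 and 7.65 at 12 weeks and 7.59, 6.34, 6.77, 6.29 and 6.42 at 16 weeks. Only replicate 1 among the 16-week mice reached into the 4-week range. Sqstm1 was lower at 16 than at 4 weeks, with a log2 fold change of -1.40 (SE 0.366, limma adjusted p = 0.0423), and from 4 to 8 weeks its log2 fold change was -1.11 (SE 0.366, limma adjusted p = 0.0614). The 16-week call held in 10 of 20 fits without 1 mouse (adjusted p from 0.00779 to 0.148 over the limma fits), and the mice whose omission ended it were spread over 4, 12 and 16 weeks. The dim second probe set of Sqstm1 (the 15.2 percentile) had a log2 fold change of 0.06.

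The 250 bases before the start of transcription are shown for the 4 genes with the largest negative differences, Atg3, Nbr1, Map1lc3b and Sqstm1, since their signals moved alike over the arrays. The sequences are those of RefSeq on build GRCm38.p6, written 5′ to 3′ on the strand of the gene, and Nbr1 has another start with a window of its own that is not printed. Capitals mark CACGTG (the core of the site read by TFEB and related factors of lysosomal genes), CCAAT and TGACGT (the core of the CRE site), searched on both strands.
Atg3 (chr16:45158579-45158828, plus strand): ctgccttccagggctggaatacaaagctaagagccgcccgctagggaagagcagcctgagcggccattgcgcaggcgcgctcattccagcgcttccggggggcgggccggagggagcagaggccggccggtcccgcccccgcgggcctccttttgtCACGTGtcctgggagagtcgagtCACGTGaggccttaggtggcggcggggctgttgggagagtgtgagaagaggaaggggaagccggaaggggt
Nbr1 (chr11:101551857-101552106, plus strand): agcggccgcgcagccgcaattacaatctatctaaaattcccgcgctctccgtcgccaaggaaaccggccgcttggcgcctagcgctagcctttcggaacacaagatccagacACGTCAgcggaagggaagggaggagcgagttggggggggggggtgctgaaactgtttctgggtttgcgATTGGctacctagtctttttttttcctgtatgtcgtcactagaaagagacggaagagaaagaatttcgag
Map1lc3b (chr8:121590188-121590437, plus strand): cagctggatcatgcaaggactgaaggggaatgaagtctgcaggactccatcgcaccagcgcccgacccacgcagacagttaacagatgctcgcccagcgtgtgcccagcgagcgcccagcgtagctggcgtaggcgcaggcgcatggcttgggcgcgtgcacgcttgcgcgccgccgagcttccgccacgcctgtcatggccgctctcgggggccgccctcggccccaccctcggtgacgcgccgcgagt
Sqstm1 (chr11:50210821-50211070, minus strand): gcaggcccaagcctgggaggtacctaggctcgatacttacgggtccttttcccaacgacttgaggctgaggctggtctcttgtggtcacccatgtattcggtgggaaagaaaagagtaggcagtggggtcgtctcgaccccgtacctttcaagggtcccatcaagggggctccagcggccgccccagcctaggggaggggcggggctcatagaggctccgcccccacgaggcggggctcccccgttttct
CACGTG stood at 94 and 71 bases before the start of Atg3 and did not occur in the windows of Nbr1, Map1lc3b and Sqstm1. Windows were also searched for Atg5, Atg7, Gabarapl1 and Ulk1, and none was searched for Becn1 and Atg12. CACGTG occurred once in the windows of Atg5 (14 bases before the start) and Atg7 (132 bases before), and 6.02% of 32851 mouse promoter windows of the same length held it. The Atg7 window (114670846 to 114671095 on chromosome 6) belongs to a start inside the gene, which begins at 114643127. The printed Nbr1 window held CCAAT once and TGACGT once, found in 33.8% and 6.47% of windows. The windows of Map1lc3b and Sqstm1 held none of these letters, and a match is a description of letters only. Atg3 lies on chromosome 16 (45158829 to 45188538), Nbr1 and Becn1 lie on chromosome 11 (101552107 to 101581951 and 101288258 to 101302286), Map1lc3b on chromosome 8 (121590438 to 121598760) and Sqstm1 on chromosome 11 (50200152 to 50210820).

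Between 8 and 12 weeks the signs turned. Log2 fold changes were positive for 8 of the 10 genes. The median of the 10 was 0.44, against -0.05 over all genes and 0.50 over the brightest 10%. None of the 10 was called, as was true of all but 1 of 18194 genes (0.0055%). At an unadjusted p under 0.05 there were 4 of the 10, Atg3, Nbr1, Map1lc3b and Ulk1, against 18.8% of all genes. From 12 to 16 weeks the median was -0.31, against -0.02 over all genes and -0.53 over the brightest 10%. Again none of the 10 was called, against 0.192% of all genes (3 of the 10 at an unadjusted p under 0.05, against 14.2%). Atg3 came closest, with a log2 fold change of -1.30 (SE 0.327, limma adjusted p = 0.126). The sequence of negative, positive and negative signs over these periods was shared by 7 of the 10 genes, although neighbouring periods share an age and therefore share arrays.

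The calls of the last period changed with the omission of replicate 1 at 16 weeks. Without this mouse, Atg3 and Nbr1 were called lower from 12 to 16 weeks, as they also were with all mice kept and the arrays weighted. Its omission also gave 4 genes (Atg3, Nbr1, Sqstm1 and Map1lc3b) called lower at 16 than at 4 weeks, and 4 called in the test over all ages. From 4 to 8 weeks its omission raised the count from 3 to 5, since all ages share 1 estimate of the spread between mice.

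Over the longer intervals, 2 of the 10 genes, Atg3 and Sqstm1, were called from 4 to 16 weeks, against 3.63% of all genes (3.12% lower and 0.506% higher). Without adjustment, 4 of the 10 had p under 0.05, against 24.2% of all genes. The median of the 10 was -0.33, against 0.01 over all genes, -0.55 over the brightest 10% and -0.195 over the next 10%. The brightest 10% hold Atg3, Nbr1, Map1lc3b and Gabarapl1, and the next 10% hold Becn1, Sqstm1 and Ulk1. Nbr1 stood at -1.33 (limma adjusted p = 0.0506), and Atg7 at 0.37 (limma adjusted p = 0.105). None of the 10 was called by limma from 4 to 12 weeks (0.0934% of all genes), where Becn1 was the 1 gene at an unadjusted p under 0.05 (9.03% of all genes), or from 8 to 16 weeks (0 of 18194 genes, and none of the 10 at an unadjusted p under 0.05, against 5.81% of all genes).

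The genes whose signal was most like that of Atg3 over the 20 arrays were Arcn1 (r = 0.964), Ak3 (r = 0.963) and Ipo7 (r = 0.961), and those most like Becn1 were Isy1 (r = 0.937), Gsap (r = 0.936) and Rhag (r = 0.925). Nbr1 followed Atg3 almost as closely (r = 0.953). These values describe arrays that also share the differences in spread described next.

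Signals of most of the 10 genes followed the spread of their array. That spread was computed from the same values, so a positive r is in part built in for bright genes. The share of equally bright genes with such an r was not computed, and the permutations exchanged arrays between ages. The permutation p values therefore do not show a relation particular to these genes. Pearson's r over 20 arrays was 0.94 for Map1lc3b (Spearman rho = 0.97), 0.92 for Nbr1 (rho = 0.91) and 0.91 for Atg3 (rho = 0.87), each with a permutation p of 1e-05, the smallest that 100000 permutations can give, and an adjusted p of 3.33e-05 over the 10 relations. The relation was positive with r above 0.7 for 7 genes, adding Sqstm1, Atg12, Ulk1 and Gabarapl1, while Becn1 had r = -0.65 (rho = -0.48, adjusted permutation p = 0.00282 and 0.0441). Without the pair of arrays farthest from the median spread, replicate 5 at 4 weeks and replicate 5 at 8 weeks, r was 0.94 for Map1lc3b, 0.91 for Nbr1 and 0.88 for Atg3 but -0.37 for Becn1, so the latter relation rested on these arrays. Deviations from the age means, pooled over the ages, had r of 0.94, 0.87 and 0.89 for the first genes and -0.64 for Becn1. For Atg5 and Atg7, r was 0.18 and -0.40 (adjusted permutation p = 0.438 and 0.0932).

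**Figure D2:**
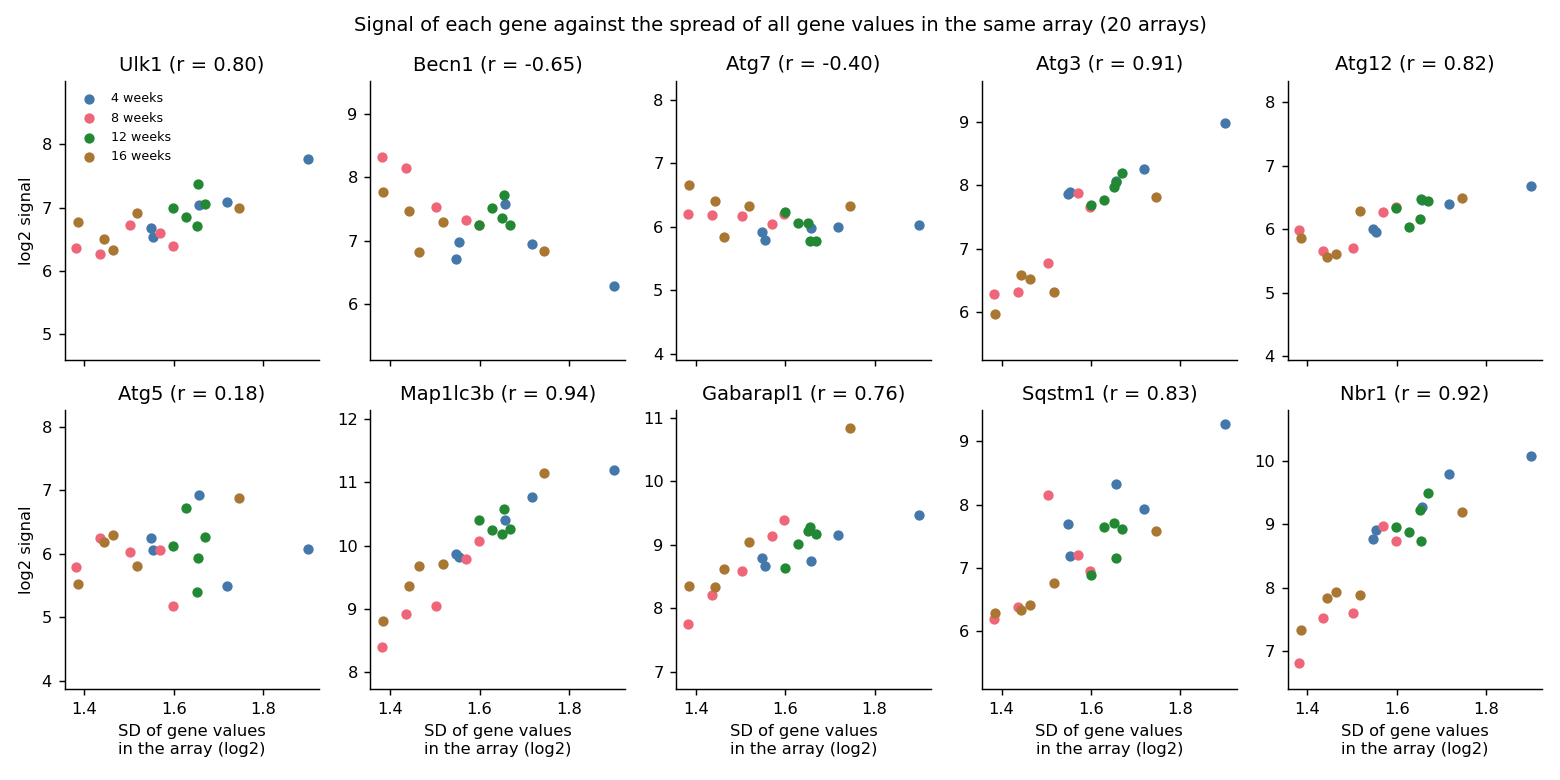
Log2 signal of each autophagy gene (vertical axis) against the standard deviation of all gene values in the same array (horizontal axis), with 1 point per array coloured by age and Pearson's r over 20 arrays above each panel. Over the 20 arrays the signals of Map1lc3b, Nbr1 and Atg3 rise with the spread (r = 0.94, 0.92 and 0.91), although the 5 arrays at 12 weeks cover a narrow range of spread and show no such rise for Map1lc3b, and Atg5 shows no such order (r = 0.18).

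Bright genes as a whole moved with the spread. In the brightest 10% of genes, which holds Atg3, Nbr1, Map1lc3b and Gabarapl1, the median log2 fold change was -0.49, 0.50 and -0.53 over the successive periods. In the next 10%, which holds Becn1, Sqstm1 and Ulk1, it was -0.25, 0.21 and -0.21. Acinar markers (11 of 12 listed were measured) moved as well, with a mean log2 signal of 10.3 (range over the mice 8.96 to 11.2) at 4 weeks, 8.90 (7.98 to 10.2) at 8 weeks, 9.32 (8.75 to 10.3) at 12 weeks and 8.97 (7.95 to 10.2) at 16 weeks. The mean was pulled by Amy1, Bpifa2 and Smr3a, at -3.209, -3.362 and -2.315 from 4 to 8 weeks (limma adjusted p = 0.193, 0.134 and 0.232). Amy1 alone ran from 5.53 to 11.8 among the 4-week mice. The median log2 fold change of the 11 markers was -0.947. Fibroblast markers went from 7.45 (7.18 to 7.74) at 4 weeks to 6.58 (6.12 to 6.97) at 8 weeks, and 2 of 5 were called lower, as was 1 of 11 acinar markers. Duct markers (8 of 11 listed were measured) had means of 7.45, 7.67, 8.45 and 7.74 in order of age, and 2 of 8 were called higher at 8 weeks. Of the other lists, 1 of 5 myoepithelial and 1 of 5 macrophage markers were called lower and 1 of 5 T cell markers higher at 8 weeks. The part of these shifts in the differences of the autophagy genes was not tested beyond the fits given next.

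With the spread of each array as a covariate, none of the 10 genes was called by limma from 4 to 8 weeks. Of all 18194 genes only 7 were called higher and 9 lower in that fit, so few genes of any kind kept a call. From 4 to 16 weeks 1 of the 10 was called higher and 1 lower, against 82 higher and 66 lower of all genes. Atg3 kept its call from 4 to 16 weeks at -0.82 (SE 0.189, limma adjusted p = 0.0389, within 0.00193 to 0.0687 over all alternatives), while its log2 fold change from 4 to 8 weeks was -0.42 (limma adjusted p = 0.447, within 0.0124 to 0.447). Gabarapl1 changed from 0.07 without the covariate to a rise of 0.93 with it between 4 and 16 weeks (SE 0.219, limma adjusted p = 0.0434, within 0.0118 to 0.998). Its sign from 4 to 8 weeks also turned, from -0.35 to 0.58. The rise at 16 weeks was not firm. Over all alternatives it ran from -0.382 to 0.931, and the covariate fit over all probe sets did not call it (limma adjusted p = 0.0502). Replicate 1 at 16 weeks, at 10.84, lay far above the other mice of that age (8.34 to 9.04). Nbr1 and Sqstm1 kept their signs in both comparisons at smaller sizes, and Map1lc3b turned from -0.67 to 0.20 between 4 and 16 weeks. Quantile normalization of the arrays, which makes their spread equal, called Atg3, Nbr1 and Map1lc3b lower and Becn1 higher at 8 weeks, and Atg3 and Sqstm1 lower and Gabarapl1 higher at 16 weeks. Of all 18194 genes it called 704 lower and 354 higher at 8 weeks, and 534 lower and 196 higher at 16 weeks.

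**Figure D3:**
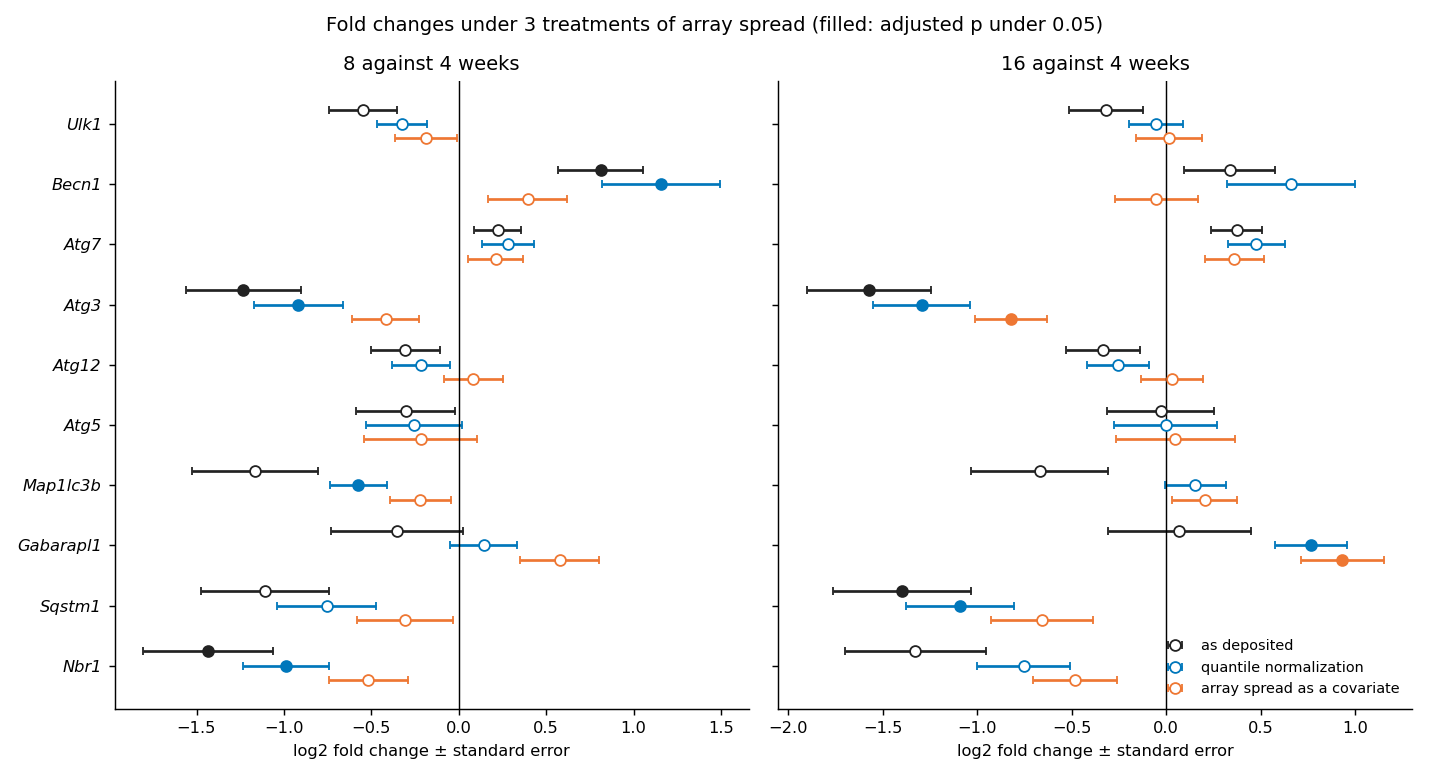
Log2 fold changes (horizontal axis, with standard errors) of the 10 autophagy genes from 4 to 8 weeks and from 4 to 16 weeks in the deposited values, after quantile normalization and with array spread as a covariate; filled points had an adjusted p under 0.05. Atg3 lay below 0 under all 3 treatments, and Gabarapl1 lay above 0 at 16 weeks, reaching 0.93 with the covariate.

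The signal of Amy1, taken as a rough measure of the parotid share of each sample, was used as another covariate after its range was seen. None of the 10 genes was then called by limma from 4 to 8 weeks, where the log2 fold changes were -1.10 for Atg3, -1.28 for Nbr1 and 0.57 for Becn1 (limma adjusted p = 0.143, 0.14 and 0.196). Atg3 remained lower at 16 than at 4 weeks, at -1.5 (limma adjusted p = 0.0355). The share of all genes called in this fit was not counted. Amy1 did not follow Bpifa2 in every array. In replicate 3 at 4 and at 12 weeks Amy1 was 5.88 and 5.36, while Bpifa2 was 12.78 and 12.9.

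All 29 probe sets were compared as well, because those of some genes disagreed. From 4 to 8 weeks 6 of the 29 were called, 5 lower and 1 higher, against 7.47% of all 45037 probe sets, and from 4 to 16 weeks 5 were called lower, against 2.57% called lower and 3.78% called either way. From 4 to 8 weeks the probe sets of 5 genes had a single sign (Ulk1, Atg5, Atg7, Gabarapl1 and Nbr1), and those of the other 5 had both. Below the 40th percentile of mean signal lay 9 of the 29, including the second probe sets of Atg3, Sqstm1 and Nbr1. With the mean of all probe sets of a gene, Nbr1 and Ulk1 were called lower at 8 weeks, at -1.03 and -0.36 (limma adjusted p = 0.023 and 0.0464), and Atg3 had -0.51 (limma adjusted p = 0.0643).

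**Figure D4:**
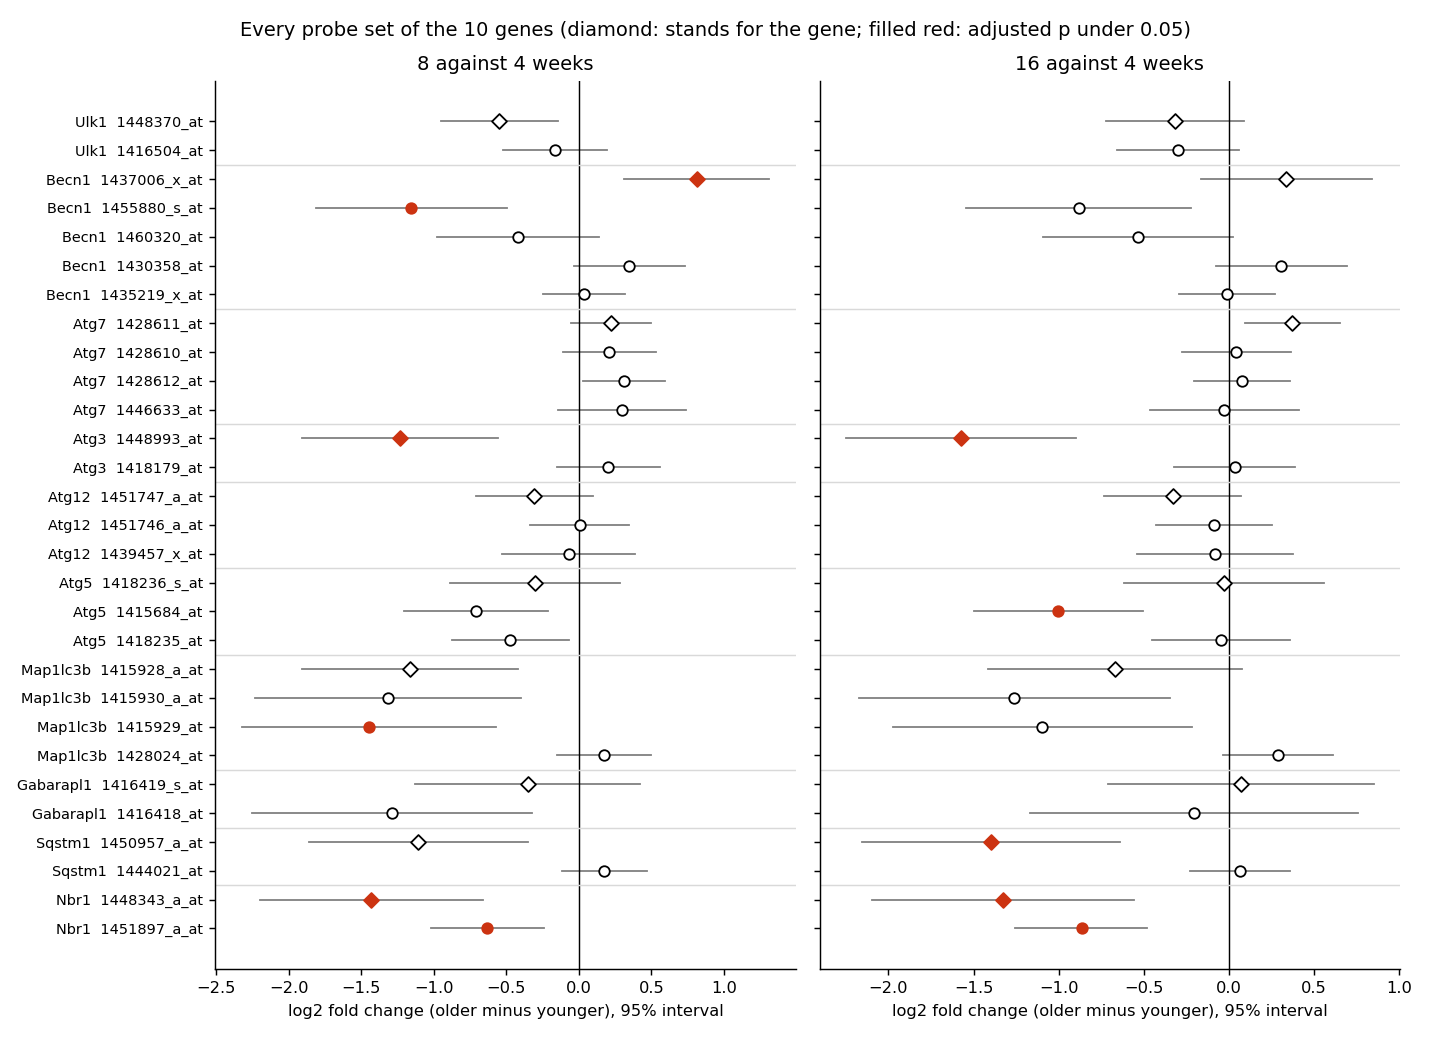
Log2 fold change with its 95% interval (horizontal axis) for each of the 29 probe sets, from 4 to 8 weeks and from 4 to 16 weeks; diamonds stand for the gene and red marks an adjusted p under 0.05. Both probe sets of Nbr1 lie below 0 in both panels, while those of Becn1 extend from -1.16 to 0.81 at 8 weeks.

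Beyond the 10 genes, 65 of 67 other autophagy and lysosome genes were measured, a list drawn up with earlier results of these data known. From 4 to 8 weeks 10 of them fell and none rose, against 4.13% of all genes called lower and 3.26% called higher. Their median was -0.31 and 49 of 65 were negative, against a median of 0.05 over all genes. The brightest 10% of genes had a median of -0.49 and the next 10% had -0.25. Neither the 65 genes nor any role among them was compared with genes of like signal. Log2 fold changes of the called genes are given by role. Of the Atg8 family, Gabarap fell by 1.41 (limma adjusted p = 0.0309). Among receptors, Tax1bp1, which binds ubiquitinated cargo as Sqstm1 and Nbr1 do, stood at -1.24, Calcoco1 at -0.74 and the endoplasmic reticulum receptor Retreg1 at -1.37 (limma adjusted p = 0.0298, 0.0382 and 0.0413). Nrbf2, a subunit of the nucleation complex of Becn1, stood at -1.70, and Vmp1, a membrane protein of early autophagosomes, at -1.11 (limma adjusted p = 0.0252 and 0.0467). Tecpr1 and Vps41, which act in fusion with lysosomes, stood at -0.69 and -0.89, and the lysosomal Ctsl, a protease, and Atp6v0d1, a subunit of the proton pump, stood at -1.70 and -1.53 (limma adjusted p = 0.0254, 0.0392, 0.0395 and 0.0277). The lysosomal genes had a median of -0.99 from 4 to 8 weeks, and the other genes of conjugation, the step of Atg3 and Atg7, had -0.15 with none of 7 called by limma (1 of 7 at an unadjusted p under 0.05). Later, none of the 65 was called by limma from 8 to 12 weeks (14 of 65 at an unadjusted p under 0.05, against 18.8% of all genes) or from 12 to 16 weeks (13 of 65, against 14.2%), and the medians were 0.23 and -0.25. At 16 against 4 weeks 6 were lower (Nrbf2, Vmp1, Gabarap, Sec62, Tecpr1 and Ctsl), against 3.12% of all genes. With array spread as a covariate the median of the 65 from 4 to 8 weeks was 0.064, against 0.066 over all genes. None of the 65 was then called by limma, and of all 18194 genes only 7 were called higher and 9 lower.

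**Figure D5:**
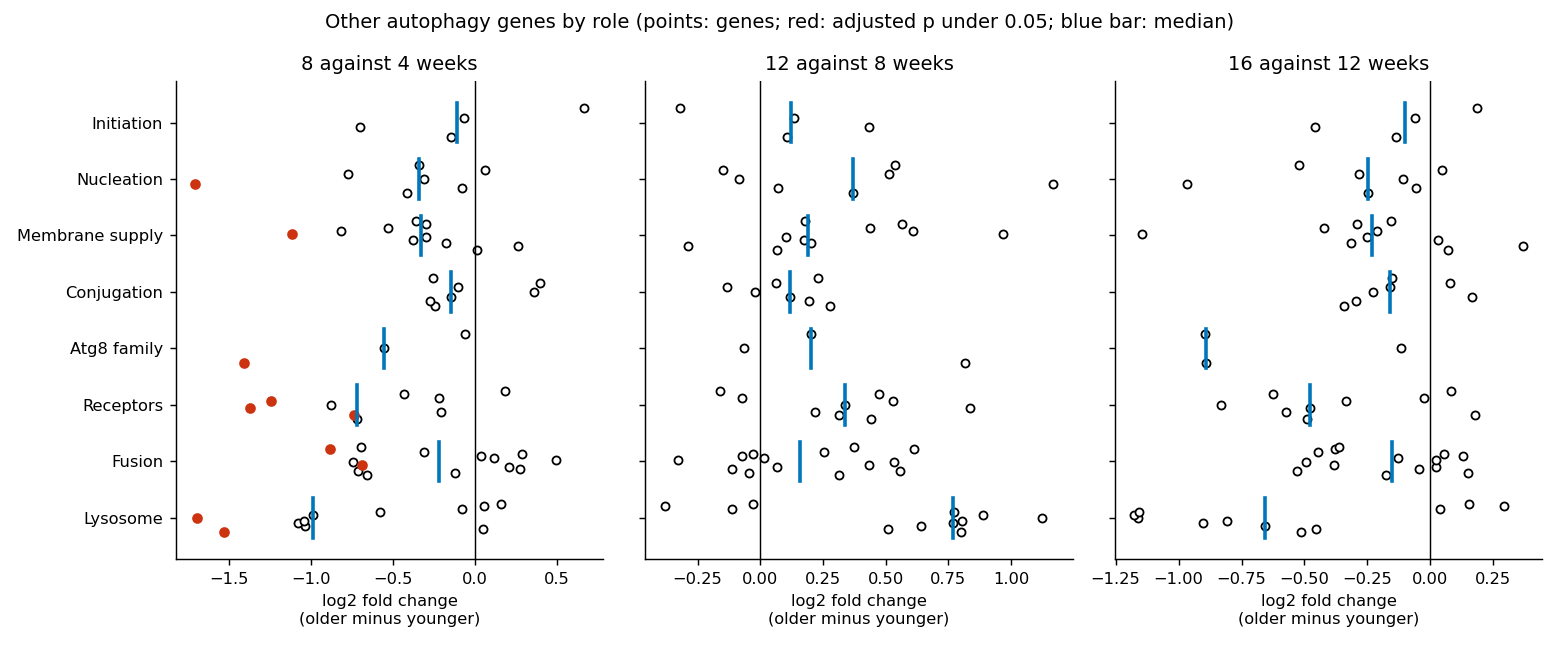
Log2 fold changes (horizontal axis) of 65 other autophagy and lysosome genes by role (vertical axis) in the 3 neighbouring periods, with 1 point per gene, a bar for the median of the role and red for an adjusted p under 0.05. Called genes appear from 4 to 8 weeks, all below 0, and the lysosomal median goes from -0.99 to 0.77 and then to -0.66.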

How the data were processed

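The authors deposited log2 signals of 45101 probe sets from Affymetrix mouse arrays, which they made by RMA in Expression Console from biotin-labelled cRNA of single mice; their methods give quantile normalization of probe intensities. These values were used as they are. A single gene symbol was listed for 34958 probe sets, several for 932 and none for 9211, and symbols were updated through gene IDs. Genes (18194, by the probe set of highest mean) and 45037 probe sets were fitted with limma 3.58.1 in R 4.3.3 to the 4 ages in 1 model of 20 arrays, with Benjamini-Hochberg adjustment over the whole table. The steps were tested on simulated data. Precision is limited by how many arrays there are. The 10 genes and all lists were chosen with earlier results of these data known. All 10 genes were named, with up to 12 called genes of the other list and the 3 genes most like the gene of lowest F-test p and most like the gene of widest range with the opposite sign. Alternatives were other normalizations (median centring, cyclic loess, quantile), only values at or above the 40th percentile of mean signal, the mean of probe sets, each probe set alone, array spread as a covariate, a replicate block, array weights, robust trended variances, fits to 2 ages, and each mouse left out. Amy1 as a covariate and a fit without the 2 arrays of highest spread were chosen after seeing the data. Promoter windows were searched with Python 3.11.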

Additional observations from a re-analysis of the deposited data

Results flagged for a closer look

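In 120 groups of 5 mice (29 probe sets and the array spread at 4 ages), 4 had 1 mouse whose gap to the nearest other mouse took up more of the group's range than the critical value of 0.71 allows. Chance flags about 1 in 20 groups. Gabarapl1 in replicate 1 at 16 weeks was the highest at 10.84, with the others from 8.34 to 9.04 (gap over range 0.72). This is the mouse with the highest array spread of its age. Atg7 in replicate 4 at 8 weeks was the lowest of its group at 6.04, below a tight set of 6.18 to 6.21 (gap over range 0.804). A second probe set of Atg7 was lowest in replicate 5 at 4 weeks at 3.34, against 4.32 to 4.54 (gap over range 0.821), and a dimmer probe set of Becn1 was lowest in replicate 5 at 12 weeks at 4.58, against 5.03 to 5.20 (gap over range 0.727).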

How the results depend on the processing

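Over the alternatives of called genes and probe sets, 216 values kept their direction and side of the threshold, 133 kept the direction but were no longer past the threshold, and 1 reversed, Becn1 from 4 to 8 weeks with the mean of probe sets (-0.075). The causes were not tested. For the counts of called genes among the 10 from 4 to 8 weeks (3), the count was 0 with array spread as a covariate, with Amy1 as a covariate, with array weights and with only the 2 ages in the fit, and 1 without the 2 arrays of highest spread. Among the 29 probe sets (6) it was 0 in each of these 5 fits. Among the other 65 genes (10) it was 0 with either covariate and with the 2 ages alone, 2 with array weights and 3 without the 2 arrays. From 4 to 16 weeks the count among the 10 (2) was 0 with the 2 ages alone and 1 with Amy1. Over all ages the genes (1) numbered 2 with median centring, quantile normalization, the filter or each probe set alone, 3 with cyclic loess, 4 with array weights or without the 2 arrays, and 0 with either covariate, and the probe sets (3) numbered 5 with cyclic loess, 6 with array weights, 9 without the 2 arrays and 0 with either covariate. From 8 to 12 weeks 3 of the 10 and 1 of the 65 were called without the 2 arrays, and 1 of the 65 with the 2 ages alone. From 12 to 16 weeks array weights gave 2 of the 10 and 8 of the 65, the fit without the 2 arrays 3 and 13, and the 2 ages alone 1 of the 65. Leaving out each mouse gave 0 to 5 genes, 0 to 10 probe sets and 0 to 15 other genes from 4 to 8 weeks, 0 to 4 genes from 4 to 16 weeks and over all ages, 0 to 9 probe sets over all ages, 0 to 2 genes and 0 to 6 other genes from 12 to 16 weeks, and 0 to 1 other genes from 8 to 12 weeks. All calls among the 10 from 4 to 8 weeks were lost without replicates 4 or 5 at 4 weeks or replicates 3 or 5 at 8 weeks. The share of all genes called was counted only for quantile normalization and the spread covariate. Under the other alternatives a change in count is not shown to be particular to these genes.

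Replicate numbers did not pair the mice, since deviations of same-numbered arrays had r from -0.56 to 0.58. With the replicate block, 0 of the 10 genes, 0 of the 29 probe sets and 2 of the 65 other genes were called from 4 to 8 weeks, 1 gene from 4 to 16 weeks, and 0 genes and 0 probe sets over all ages.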
